A study of Mus musculus with 24 samples.

Results

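NSC34 is a mouse hybrid line made from neuroblastoma cells and spinal cord cells rich in motor neurons, and it is used as a motor-neuron-like line. C2C12 is a mouse myoblast line that can fuse into muscle fibres in culture. The comparison asked which RNAs differed between NSC34 cells grown with C2C12 cells for 3 days (co-culture, n = 6 libraries) and NSC34 cells grown without them (control, n = 6). Its members were these 12 libraries of the 24 in the series, taken by their labelled line and treatment, and the other 12 were the C2C12 side of the same co-culture. All 24 were labelled WT, so no gene was altered in any group. Total RNA extracted with Trizol was read on a Nanopore MinION. Each group rests on 1 established line, and no label states how NSC34 cells were separated from C2C12 cells before extraction. Nor do the labels say that replicates came from separate cultures, so the p-values measure the spread between libraries, which may be technical.

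At the neuromuscular junction, a motor axon releases acetylcholine onto receptors clustered in the muscle membrane, and nerve and muscle exchange signals that shape both cells. Glycolysis breaks glucose down to pyruvate, and lactate dehydrogenase turns pyruvate into lactate where oxygen or respiration is short. When oxygen falls, the transcription factor HIF-1 raises the genes of glycolysis and a set of genes for mitochondrial proteins, among them BNIP3, which directs mitochondria to be degraded, and HIGD1A, which associates with the respiratory chain.

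Depth set what could be seen. Control libraries 1 to 6 held 88, 4076, 4009, 2239, 4624 and 822 reads, and co-culture libraries 1 to 6 held 4309, 30314, 5006, 3017, 9554 and 2807. The groups overlapped, with means of 2643 ± 1890 and 9168 ± 10645 reads (SD, n = 6; exact two-sided permutation test, p = 0.0758). Co-culture 2 alone gave 55.1% of the 55007 co-culture reads, and control 1 was almost empty. Without co-culture 1, 4 or 6 in turn, the depth difference had an exact p of 0.0498, 0.026 and 0.026. Leaving out any other single library gave 0.0541 to 0.219. The exact p was 0.0714 on the log2 scale and 0.481 without the libraries under 1000 reads. A gene with no read could have made up to 189 CPM (reads scaled to the library total) of the 15858 pooled control reads and up to 54.5 CPM of the pooled co-culture reads, limits that take 3 reads as the most a count of 0 allows. Such limits, and the exact Clopper-Pearson 95% intervals given below, cover counting error only, since the reads carry no molecular identifiers.

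**Figure D1:**
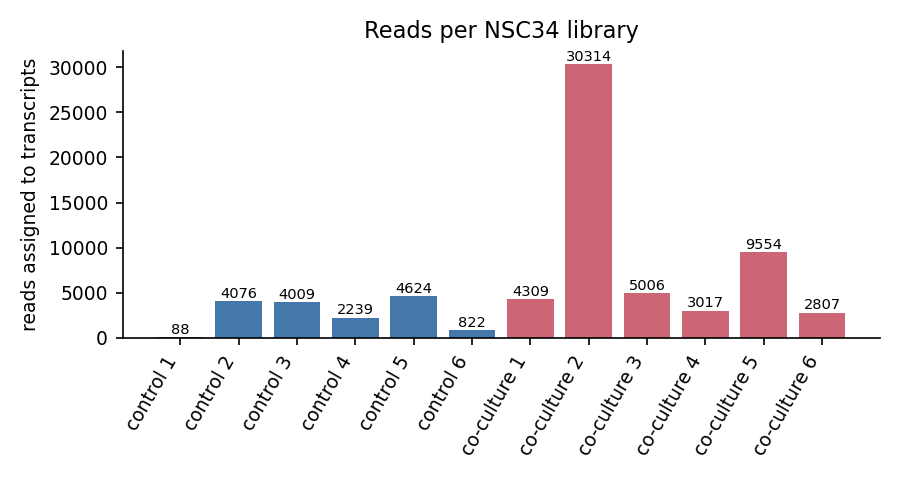
Bars give the reads assigned to transcripts (y axis) in each of the 12 NSC34 libraries (x axis), controls in blue and co-cultures in red. Co-culture 2 holds 30314 reads and control 1 holds 88.

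Markers placed the libraries with the neuronal line, although motor neuron markers were nearly absent at this depth. Of 12 neuronal markers 9 had reads, summing to 1955 CPM in pooled controls (0 to 3650 over libraries) and 2272 CPM in pooled co-cultures (1256 to 3315), against 228 and 206 CPM in C2C12. Uchl1, a neuronal ubiquitin hydrolase, had 86 reads, Tubb3, the neuronal tubulin, had 26 and Prph, the intermediate filament peripherin, had 25, while Map2, Nefm and Stmn2 had 0. Stmn2 went the other way between the lines, with 369 reads (111 CPM) in C2C12. Of 6 motor neuron markers, Isl1 had 3 reads and Chat, which makes acetylcholine, had 1, while Slc18a3, Slc5a7, Mnx1 and Lhx3 had 0. Of 16 skeletal muscle markers 4 had reads, with a summed level of 0 to 491 CPM over controls and 0 to 928 CPM over co-cultures. Chrna1, the acetylcholine receptor subunit, held 20 of those 24 reads, and 12 markers had 0, among them Myog, Acta1, Mylpf and Des. Without Chrna1, co-culture held 3 muscle reads, 54.5 CPM (95% interval 11.2 to 159). That was 0.136% of the 40014 CPM the same 15 markers took in co-cultured C2C12, and the interval reached 0.398%. Fibroblast markers had reads for 2 of 8 (0 to 499 CPM over controls, 0 to 105 over co-cultures), glial markers for 1 of 6 (0, and 0 to 105) and immune markers for 0 of 4.

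Reads were summed per gene, and the 1104 genes with 10 or more reads over the 12 libraries, of 7504 with reads, were tested with edgeR. They held 76.4% of the reads, but 856 of them had under 10 control reads and 34 had none. Because co-culture supplied most of the reads, a gene high in co-culture could enter the test more easily than a gene high in controls. At a Benjamini-Hochberg adjusted p under 0.05, 9 genes differed (0.815% of those tested), 6 of them higher (0.543%) and 3 lower (0.272%). Higd1a, Bnip3, Fam162a, Mif, Rpl36 and the pseudogene Gm7336 were higher, and Kif24, Gm10719 and Gm10800 were lower. At an unadjusted p under 0.05, 91 genes were higher (8.24%) and 14 lower (1.27%). The CPM values of all 6 co-cultures lay above those of all 6 controls in 6 genes (0.543%). This count gives no direction, since control 1, with 88 reads on 69 genes, was at 0 for nearly every gene and the opposite order could hardly arise.

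The scaling moved the median of the fold changes. The median log2 fold change over the 1104 genes was 0.39 with TMM scaling, the trimmed mean method of edgeR, and 0.11 with library totals. The log2 fold change of Kif24 went from -1.76 to -2.11 and that of Mif from 1.75 to 1.49, while that of Higd1a went from 5.09 to 5.07, a fitted value that depends on the prior count. Under TMM the factor of control 1, the library of 88 reads, was 6.93 and that of control 6 was 1.69, while the other 10 lay between 0.60 and 0.934. With library totals, 2 genes passed higher (Higd1a, Bnip3) and the same 3 passed lower. Leaving out 1 library also moved the counts from 6 higher and 3 lower. They were 1 and 1 without control 1, 2 and 1 without control 3, 2 and 2 without control 4, and 0 and 0 without control 5 or co-culture 2. Without co-culture 3 they were 2 and 0, and the lower count was 1 without co-culture 1 or 4. Without controls 1 and 6, both under 1000 reads, 0 genes passed, with Higd1a at an edgeR adjusted p of 0.0506.

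**Figure D2:**
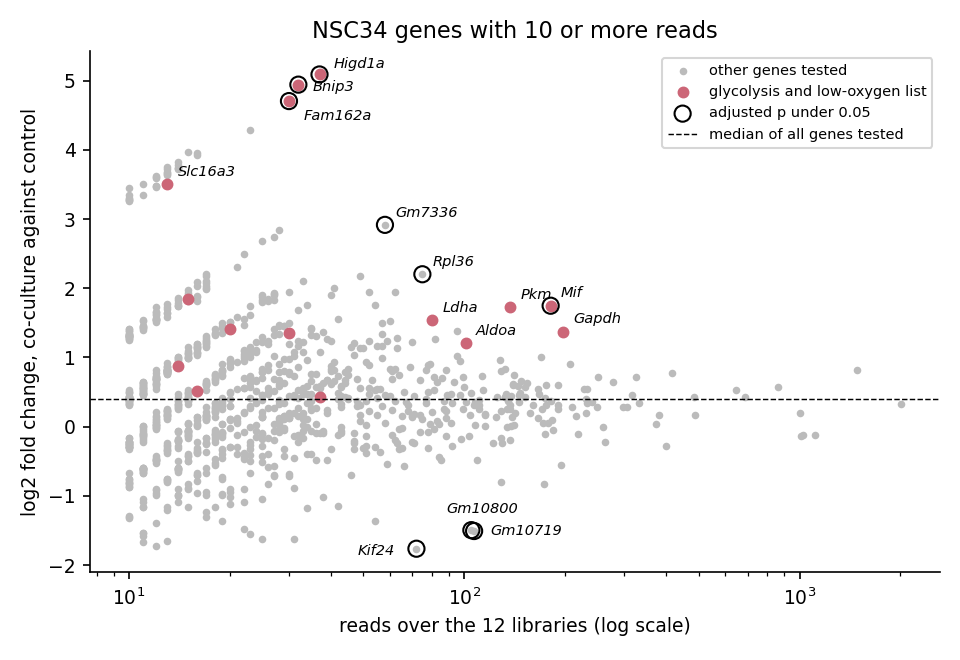
Each point is 1 of the 1104 tested genes, placed by its reads over the 12 libraries (x axis, log scale) and its edgeR log2 fold change, co-culture against control (y axis). Red points are members of the glycolysis and low-oxygen list, rings mark the 9 genes with an adjusted p under 0.05, and the dashed line is the median of 0.39; the tested members of the list lie above that line.

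Higd1a and Bnip3, which low oxygen is known to induce, had the smallest p-values among higher genes, followed by the pseudogene Gm7336, Fam162a and Mif. The RefSeq promoters (GRCm38.p6, 300 bases around the start) of the 4 protein-coding genes among them are shown because the core of the hypoxia response element can be looked for there. Capitals mark ACGTG or GCGTG on either strand, read on the minus strand as CACGT or CACGC. All 4 genes lie on the minus strand, at chr9:121857747-121858046 (Higd1a), chr7:138909457-138909756 (Bnip3), chr16:36071512-36071811 (Fam162a) and chr10:75860228-75860527 (Mif), and each is printed 5′ to 3′ along its gene.
Higd1a: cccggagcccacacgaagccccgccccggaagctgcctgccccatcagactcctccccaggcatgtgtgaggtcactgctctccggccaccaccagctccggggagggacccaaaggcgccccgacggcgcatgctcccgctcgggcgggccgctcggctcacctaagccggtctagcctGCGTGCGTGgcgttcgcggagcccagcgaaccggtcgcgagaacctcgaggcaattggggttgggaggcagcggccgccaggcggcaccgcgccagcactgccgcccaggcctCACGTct
Bnip3: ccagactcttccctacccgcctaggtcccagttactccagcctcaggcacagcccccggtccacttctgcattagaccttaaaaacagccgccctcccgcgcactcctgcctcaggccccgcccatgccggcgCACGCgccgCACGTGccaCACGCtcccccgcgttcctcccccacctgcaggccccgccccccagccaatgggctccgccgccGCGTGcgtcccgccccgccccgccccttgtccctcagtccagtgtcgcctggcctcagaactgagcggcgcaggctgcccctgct
Fam162a: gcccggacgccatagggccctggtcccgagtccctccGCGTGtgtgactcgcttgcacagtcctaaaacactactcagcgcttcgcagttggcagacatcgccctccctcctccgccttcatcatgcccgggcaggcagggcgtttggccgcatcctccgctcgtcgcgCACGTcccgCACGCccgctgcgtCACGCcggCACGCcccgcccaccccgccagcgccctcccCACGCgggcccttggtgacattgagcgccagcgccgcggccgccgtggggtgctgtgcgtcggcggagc
Mif: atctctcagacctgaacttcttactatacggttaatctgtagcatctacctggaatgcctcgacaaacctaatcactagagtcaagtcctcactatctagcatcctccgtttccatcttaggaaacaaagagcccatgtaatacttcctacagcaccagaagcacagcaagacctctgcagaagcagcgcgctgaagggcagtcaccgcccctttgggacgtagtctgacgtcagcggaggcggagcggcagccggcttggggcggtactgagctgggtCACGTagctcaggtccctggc
The counts of matches were 3 for Higd1a, 5 for Bnip3, of which a pair overlaps in CACGTG, 6 for Fam162a and 1 for Mif. Such letters are common, since 43.8% of all 32851 promoters in the table and 70.0% of the 1047 promoters of tested genes held at least 1 match. At least 3 matches were held by 8.93% and 20.2% of them.

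Higd1a, a small protein of the inner mitochondrial membrane (chromosome 9, 121848563 to 121858362), had 0 reads in every control and 4, 20, 3, 5, 4 and 1 in co-cultures 1 to 6. Single libraries cannot be ranked from these counts, since 3 reads, the most that a count of 0 allows, are 649 to 34091 CPM of a control library, and co-culture 6 was at 356 CPM. Only the pooled reads set a bound. The 37 reads were 673 CPM (95% interval 474 to 927), 3.56-fold the limit of 189 CPM set by the pooled controls (edgeR adjusted p = 0.0206). That fold allows for counting error in the controls only. Without co-culture 2 the fold was 3.64, but the adjusted p was 0.0543, and the adjusted p was 0.0808 without control 5. With library totals it stayed at 0.0205. The Higd1a transcript shares 100 or more bases at 90% identity or more with 2 other annotated genes.

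Bnip3, a mitochondrial outer membrane protein that marks mitochondria for autophagy (chromosome 7, 138890836 to 138909519), also had 0 control reads. Co-cultures 1 to 6 held 6, 16, 2, 2, 1 and 5, and again only the pooled reads set a bound. The pooled level was 582 CPM (398 to 821), 3.08-fold the limit of 189 CPM for the controls (edgeR adjusted p = 0.026). Without co-culture 2 it was 3.43-fold that limit. The adjusted p was 0.0543 without co-culture 2, and 0.0583, 0.065 and 0.107 without control 1, 3 and 5. By the same measure, Bnip3 shares sequence with 6 other annotated genes.

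Fam162a, a mitochondrial protein linked to cell death under low oxygen (chromosome 16, 36043761 to 36071594), had 0 control reads and 0, 20, 3, 2, 2 and 3 in co-cultures 1 to 6. Co-culture 1 had no read, as in the controls. The pooled 545 CPM (368 to 778) was 2.88-fold the limit of 189 CPM for the controls (edgeR adjusted p = 0.0322). Without co-culture 2 the pooled level was 2.14-fold that limit, and its interval of 194 to 745 CPM began close to the limit. The Fam162a call was lost without control 1, 2, 3, 4 or 5 or co-culture 2 or 3, with edgeR adjusted p between 0.0721 and 0.166. It was lost with library totals too (0.0841). Fam162a shares sequence with 1 other annotated gene.

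Mif, a secreted cytokine with tautomerase activity and a target of HIF-1 (chromosome 10, 75859353 to 75860240), had enough reads in both groups for a ratio. Controls 1 to 6 held 0, 6, 0, 1, 7 and 2 reads, and co-cultures 1 to 6 held 14, 95, 13, 14, 25 and 4. As CPM, controls ran from 0 to 2433 with a median of 959, and co-cultures from 1425 to 4640 with a median of 2875. As counted, 5 co-cultures lay above every control. The 0 reads of control 1 allow up to 34091 CPM, so single libraries cannot be ranked here either. The pooled level was 2.97-fold higher (counting interval 1.78 to 5.32), and 2.81-fold without co-culture 2. Its log2 fold change was 1.75 (standard error 0.466, adjusted p = 0.0322 in edgeR), which is 1.36 above the median of all genes, and 1.38 above it with library totals (adjusted p = 0.0841). The call was lost without control 1, 3, 4 or 5 or co-culture 2 or 3, at edgeR adjusted p between 0.0597 and 0.247. Mif transcripts share 100 or more bases at 90% identity or more with 7 other annotated genes, so some of its reads may belong to copies.

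**Figure D3:**
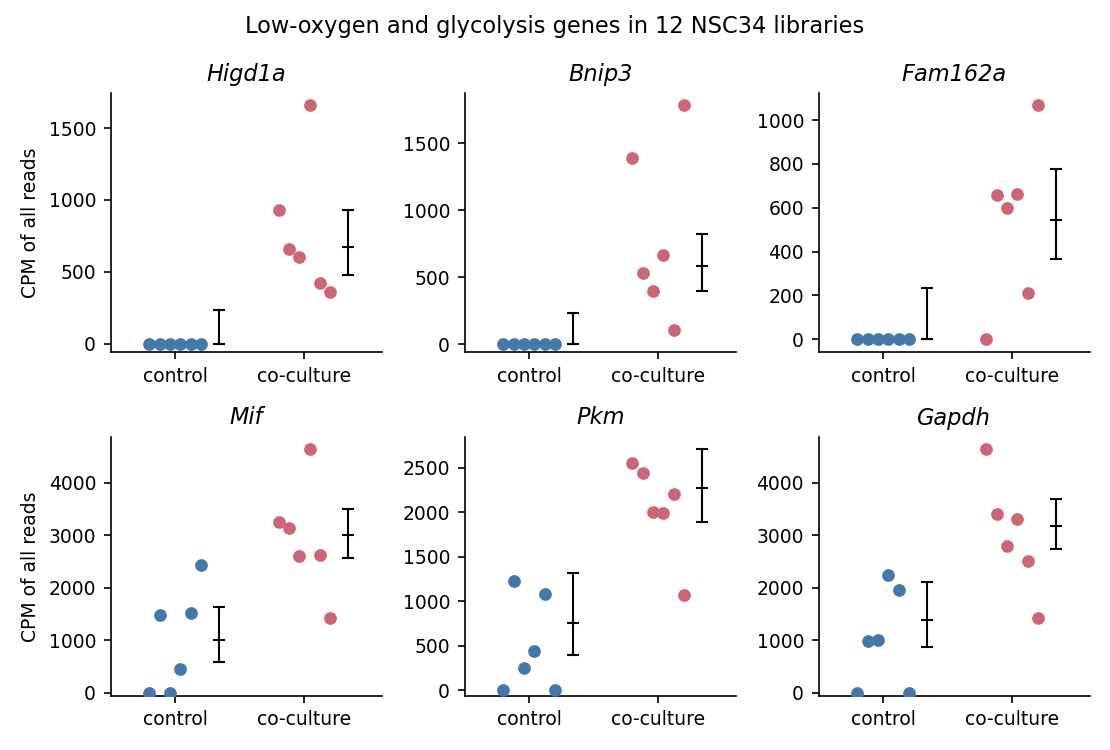
Points give CPM of all reads (y axis) in each control (blue) and co-culture (red) library for 6 genes, and black bars give the pooled level with its exact 95% counting interval. Higd1a, Bnip3 and Fam162a are at 0 in all 6 controls, and the groups overlap for Mif, Pkm and Gapdh.

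None of the 10 tested enzymes of glycolysis and lactate passed the threshold. All 10 fold changes were above 0, as were 70.5% of those of all tested genes. Pkm, the pyruvate kinase (chromosome 9, 59656368 to 59679375), had 0, 5, 1, 1, 5 and 0 reads in controls and 11, 74, 10, 6, 21 and 3 in co-cultures. As counted, its 5 highest co-cultures lay above every control, but 0 reads in controls 1 and 6 allow up to 34091 and 3650 CPM. The pooled level was 757 CPM in controls and 2272 CPM in co-culture. The log2 fold change of 1.73 (standard error 0.493) had an edgeR adjusted p of 0.0502. Of 12 fits that left out 1 library Pkm passed in 3, at 0.0477, 0.0491 and 0.038 without control 2, co-culture 4 or co-culture 6. The others reached an edgeR adjusted p of 0.247, and library totals gave 0.13. Pkm shares sequence with 9 other annotated genes.

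Gapdh, the dehydrogenase that precedes the ATP-forming steps, had 0, 4, 4, 5, 9 and 0 reads in controls and 20, 103, 14, 10, 24 and 4 in co-cultures. As counted, 5 co-cultures exceeded all controls here too, with the same limits for the 0 reads in controls 1 and 6 (34091 and 3650 CPM). The log2 fold change was 1.37 (standard error 0.439, adjusted p = 0.159 in edgeR), and 182 other annotated genes share sequence with its transcript, so its reads are uncertain. Ldha, which makes lactate, had 0, 0, 2, 1, 5 and 0 reads against 4, 44, 9, 5, 5 and 5, a log2 fold change of 1.54 (standard error 0.557, adjusted p = 0.259 in edgeR). The aldolase Aldoa had 12 control and 89 co-culture reads, a difference of 1.21 on the log2 scale (adjusted p = 0.336 in edgeR). Eno1, an enolase, had 7 and 30 reads and a log2 fold change of 0.43, which turned to -0.27 without co-culture 2, the library that held 22 of the 30. Slc16a3, which exports lactate, had 0 control reads and 12 of its 13 co-culture reads in co-culture 2.

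As a group, the 30 symbols of the glycolysis and low-oxygen list took a larger share of reads in each co-culture than in each of the 4 controls above 1000 reads (0.402 to 0.908%). In control libraries 1 to 6 the share was 0, 0.589, 0.474, 0.402, 0.908 and 0.365%, and in co-cultures 1 to 6 it was 1.65, 1.77, 1.30, 1.76, 1.15 and 1.43%. Pooled, it was 0.612% (interval 0.496 to 0.746) in controls and 1.59% (1.49 to 1.70) in co-culture, or 1.37% (1.23 to 1.53) without co-culture 2. Over all 1104 genes tested 6 rose (0.543%). Of the 26 members with reads 15 were tested, 4 rose (Higd1a, Bnip3, Fam162a, Mif), 0 fell and 11 did not pass. Their median log2 fold change was 1.54 against 0.39 for all genes, 1.38 against 0.15 where genes without control reads were set at their bound, and 1.30 against 0.11 with library totals. Members entered the test mostly through co-culture reads, so these medians describe the tested members and not the whole list, whereas the shares use all members. Earlier results of these data had Higd1a, Fam162a and Mif higher in co-cultured C2C12 when the list was drawn up, so their place in it is not independent evidence. The other members were chosen with the same results known, so the values without those 3 are not independent evidence either. In C2C12 the whole list took 1.07% of pooled control reads and 1.38% of pooled co-culture reads. Without those 3, 12 members were tested in NSC34 and 1 rose, Bnip3. The share of the remaining 27 symbols was 0.511% (0.406 to 0.634) in pooled controls and 1.17% (1.08 to 1.27) in pooled co-cultures. Controls reached 0.757% and co-cultures started at 0.827%. The 17 enzymes alone took up to 0.735% of a control and from 0.764% of a co-culture, and the pooled shares were 0.492% and 1.07%. Muscle markers other than Chrna1 held 3 reads, 54.5 CPM, in the same co-cultures, and a contribution of C2C12 RNA to the shares was not tested.

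**Figure D4:**
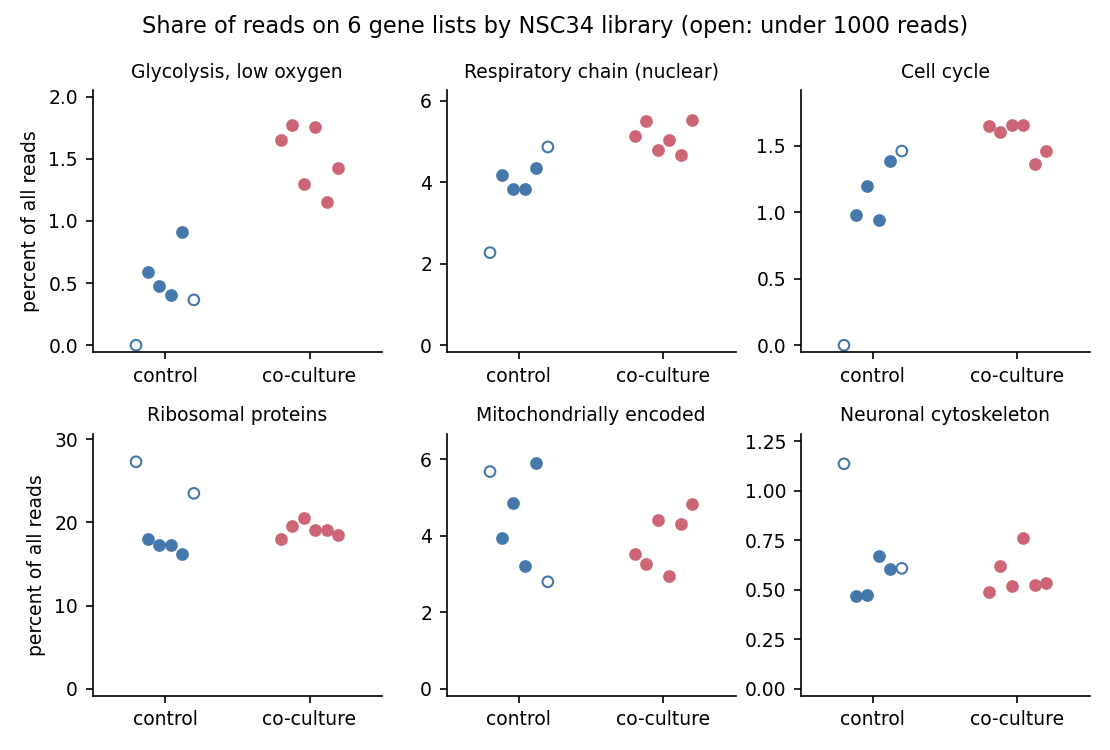
Points give the percent of all reads (y axis) on 6 gene lists in each control (blue) and co-culture (red) library, with libraries under 1000 reads drawn open. For glycolysis and low oxygen the controls reach 0.908% and the co-cultures start at 1.15%, and the groups overlap for the other 5 lists when all libraries are counted.

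Respiratory chain subunits encoded in the nucleus showed a smaller difference. Of 65 tested 0 passed, and 57 fold changes were above 0 (87.7%, against 70.5% of all tested genes and 91.5% of ribosomal protein genes). The median was 0.68 (0.42 without co-culture 2, where all genes had 0.24). Their pooled share was 4.12% (3.81 to 4.44) in controls and 5.24% (5.06 to 5.43) in co-culture. Over libraries it ran from 2.27 to 4.87% with a median of 4.01% in controls, and from 4.68 to 5.52% with a median of 5.08% in co-cultures. The 4 controls above 1000 reads, at 3.84 to 4.35%, lay below all co-cultures, and control 6, with 822 reads, lay among them. Ndufa4, a cytochrome oxidase subunit, had 34 control and 173 co-culture reads (log2 fold change 0.90, edgeR adjusted p = 0.416). Of the other subunits with the most reads, all of cytochrome oxidase, Cox8a had 51 and 165 (log2 fold change 0.15, edgeR adjusted p = 0.935), Cox7c had 42 and 148 (0.26, 0.884) and Cox6c had 45 and 121 (0.13, 0.95). Ndufb11, of complex I, had 1 and 26, and Atp5o, of ATP synthase, 3 and 37 (edgeR adjusted p = 0.253 and 0.292), and both were picked out after their values were seen.

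Of the 13 mitochondrially encoded genes with reads 12 were tested and 0 passed. Of their fold changes 7 lay above 0 (58.3%, against 70.5% of all tested genes). The pooled share was 4.60% (4.28 to 4.93) in controls and 3.64% (3.48 to 3.80) in co-culture. Single libraries ran from 2.80 to 5.90% in controls and from 2.95 to 4.85% in co-cultures, so the groups overlapped throughout. mt-Nd4, a complex I subunit, had 294 and 714 reads (log2 fold change -0.13, edgeR adjusted p = 0.95), and mt-Cytb, the cytochrome b of complex III, had 104 and 380 (0.44, 0.788).

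Among 82 tested cytosolic ribosomal protein genes, 1 rose, 0 fell and 81 did not pass. Their median of 0.39 was that of all genes, although 75 fold changes lay above 0 (91.5%, against 70.5% of all tested genes). Rpl36, a protein of the large subunit (chromosome 17, 56613416 to 56614243), had 0, 1, 0, 0, 2 and 2 reads in controls and 8, 35, 12, 3, 11 and 1 in co-cultures. Control 6, with 2 of only 822 reads, lay above every co-culture as CPM (2433 against at most 2397), with 3 reads in the other 5 controls together. The pooled level was 315 CPM (102 to 736) and 1273 CPM (992 to 1608), a log2 fold change of 2.20 (standard error 0.616, adjusted p = 0.0429 in edgeR). The call was lost without any of controls 1 to 5 or co-cultures 1 to 3 (edgeR adjusted p 0.0727 to 0.247) and with library totals (0.149). Its transcript shares sequence with 13 other annotated genes. Rpl17, with 5 and 57 reads, did not pass (edgeR adjusted p = 0.159), and 60 other genes share its sequence. The list took 17.5% of pooled control reads and 19.4% of pooled co-culture reads, with overlapping libraries.

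Gm7336, a processed pseudogene, had 2 control reads, both in control 3, and 0, 37, 7, 4, 6 and 2 in co-cultures 1 to 6. Its log2 fold change was 2.92 (standard error 0.767, adjusted p = 0.0322 in edgeR). The transcript shares sequence with 183 other annotated genes, so the source of these reads is uncertain. The call was lost without control 1, 2, 4 or 5 or co-culture 2 or 3 (edgeR adjusted p 0.0772 to 0.216).

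Of the 9 genes that passed, 3 were lower, and shared sequence limits them as it does the higher ones. Kif24, named for a kinesin of the centriole (chromosome 4, 41390745 to 41464887), had 0, 8, 6, 8, 14 and 4 reads in controls and 9, 16, 0, 1, 6 and 0 in co-cultures. The groups overlapped through co-culture 1 and control 1. The pooled level was 2522 CPM (1803 to 3433) in controls and 582 CPM (398 to 821) in co-culture, a log2 fold change of -1.76 (standard error 0.448, adjusted p = 0.0309 in edgeR), or 2.16 below the median of all genes. All 72 reads fell on 1 non-coding transcript of 1151 bases that shares sequence with 68 other genes, so they need not come from the kinesin messenger RNA. The adjusted p was 0.0766 and 0.119 without control 4 and 5, and 0.0905 and 0.142 without co-culture 2 and 3, and it was 0.00271 with library totals.

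Gm10719 and Gm10800 are short gene models that share sequence with 11 and 12 other annotated genes. Gm10719 had 0, 14, 23, 1, 11 and 5 reads in controls and 3, 26, 0, 0, 23 and 1 in co-cultures, a log2 fold change of -1.51 (standard error 0.408, adjusted p = 0.0348 in edgeR). Gm10800 had 2, 4, 31, 3, 19 and 0 against 5, 8, 0, 2, 24 and 7, a log2 fold change of -1.5 (standard error 0.412, adjusted p = 0.0397 in edgeR). Both varied by library within each group. Gm10719 passed in 3 of the 12 fits that left out 1 library, those without control 4, control 6 or co-culture 5 (the others reached 0.379), and Gm10800 in 5. Without control 3 the log2 fold changes were -1.11 and -0.81 (edgeR adjusted p = 0.379 and 0.562). The Gm10800 call was lost as well without control 1 or 5 or co-culture 1, 2, 3 or 4 (0.0691 to 0.325).

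No other gene passed in either direction. Of those with the next smallest p, Tubb5, a tubulin of dividing cells, had 3 control and 46 co-culture reads (edgeR adjusted p = 0.207), and Bex3, an adaptor of a neurotrophin receptor, had 1 and 27 (0.238). Among lower genes, Gnb1, a G protein subunit, had 13 and 12 reads, and Vcp, an ATPase of protein quality control, had 12 and 11 (edgeR adjusted p = 0.291 and 0.342). Tsen15, Cdk5r2 and Usp19 had 0 control reads and 1 or more in every co-culture, with 13 or 14 reads each (edgeR adjusted p 0.259 to 0.264). Cdk5r2 encodes a neuronal activator of the kinase CDK5, and these 3 were picked out after their values were seen.

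Cell cycle and DNA replication genes gave no call. Of 25 tested, 21 fold changes were above 0 (84%, against 70.5% of all tested genes and 91.5% of ribosomal protein genes). The median was 1.01, and it was 0.47 without co-culture 2. H2afz, a histone variant, had 0, 10, 5, 1, 9 and 0 reads in controls and 7, 80, 12, 12, 23 and 10 in co-cultures (log2 fold change 1.01, standard error 0.43, adjusted p = 0.377 in edgeR). Stmn1, a regulator of microtubules, had 6 and 51 reads (1.5, 0.33), and Hmgb1, a chromatin protein with many copies, had 19 and 23 (-1.14, 0.43). The list took 1.17% of pooled control reads (1.01 to 1.35) and 1.56% of pooled co-culture reads (1.46 to 1.67), and control 5, at 1.38%, lay above co-culture 5, at 1.36%.

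Neuronal genes, the tissue identity of the line, did not separate the groups. Of 9 tested genes of the neuronal cytoskeleton and neurite growth 0 passed, with a median of 0.26, and their share was 0.549% (0.44 to 0.676) in pooled controls and 0.587% (0.525 to 0.655) in pooled co-cultures. Uchl1 had 14 and 72 reads (log2 fold change 0.71, edgeR adjusted p = 0.726), Tubb3 had 5 and 21 (0.49, 0.877) and Prph had 6 and 19 (0.21, 0.95). Of synaptic vesicle genes 2 were tested and 0 passed: Chgb, a granin of secretory granules, had 16 and 35 reads (-0.39, 0.876), and Atp6v0c, of the vesicle proton pump, had 4 and 23 (1.02, 0.745). With so few control reads, smaller differences in these genes were not detectable at this depth.

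The series title concerns Apoe3, Lrp4 and receptor clustering, and those genes were out of reach in NSC34. Of 23 genes on the list drawn up for that question, which also holds the antioxidant gene Sod1, 7 had reads, 3 were tested and 0 passed. Apoe, Lrp4 and Agrn had 0 of 70865 reads, which allows up to 42.3 CPM each. Chrna1 had 3 and 17 reads (log2 fold change 0.91, edgeR adjusted p = 0.792), and Sod1, a superoxide dismutase, had 28 and 57 (-0.49, 0.791). Lrp6, Ache, Clu and Chat had 1 or 2 reads each.

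In the remaining lists 0 genes passed, with 28 translation factors, 22 chaperones, 13 genes of ER and amino-acid stress, 8 of sterol and fatty acid synthesis, 16 antioxidant, 26 proteasome, 27 splicing, 15 actin, 5 interferon and 3 matrix genes tested. Median log2 fold changes ran from -0.03 for sterol synthesis to 0.68 for actin genes, around the 0.39 of all genes. Ddit3, the stress factor CHOP, had 2 and 25 reads, and Acly, which makes acetyl-CoA for lipid synthesis, had 8 and 55 (edgeR adjusted p = 0.394 for each). No gene of muscle contraction (3 control and 12 co-culture reads), of the glial list (0 and 1) or of immediate early and trophic genes (7 and 24) had enough reads for a test. Matrix genes took 0.605% (0.491 to 0.739) of pooled control reads and 0.398% (0.347 to 0.454) of pooled co-culture reads, with overlapping libraries.

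The most counted genes did not separate the groups. Noct, which encodes the clock-controlled enzyme nocturnin, had 2010 reads, Sirt5, a mitochondrial desuccinylase, had 1486, Wdr31 had 1111 and Elp6 had 1024. Noct took 27242 CPM of pooled control and 28687 CPM of pooled co-culture reads (log2 fold change 0.33, edgeR adjusted p = 0.876), against 626 and 658 CPM in C2C12. Its transcript, of 9797 bases, shares sequence with 98 other annotated genes, that of Sirt5 with 21, Wdr31 with 63 and Elp6 with 525, so their reads are uncertain. Lrrc17, a secreted leucine-rich repeat protein, shared none, had 299 control and 703 co-culture reads and did not pass (0.19, 0.932). None of the 12 most counted genes passed, and of these Rps26 had the smallest p (71 and 345 reads, log2 fold change 0.77, edgeR adjusted p = 0.524).

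Whether the co-culture effect differed between the lines was tested as an interaction over all 24 libraries and 1088 genes. With edgeR 0 genes passed (0%), and 125 had an unadjusted p under 0.05, of which 116 had a higher log2 fold change in NSC34 than in C2C12. The median difference over all 1088 genes was itself 0.41 on the log2 scale, and with library totals it was 0.15, with 94 genes at an unadjusted p under 0.05. Leaving out NSC34 control 4 gave 1 gene. Mif had a log2 fold change of 0.41 in C2C12 and 1.77 in NSC34, a difference of 1.36 (standard error 0.387, adjusted p = 0.127 in edgeR). For Pkm these were 0.28 and 1.77 (difference 1.49, SE 0.427, edgeR adjusted p = 0.127). H2afz, with the smallest p, had -0.37 and 0.96 (difference 1.33, SE 0.335, edgeR adjusted p = 0.116), and Rpl36 had 0.13 and 2.25 (the same adjusted p). On the other side, Gm10012 had 0.13 and -0.91 (edgeR adjusted p = 0.232), Polr2l 0.46 and -1.80 (0.317) and Vcp -0.07 and -1.68 (0.327). Higd1a, Bnip3 and Fam162a, without a control read in NSC34, had 210, 54.8 and 258 CPM in pooled C2C12 controls and 359, 83.3 and 383 CPM in pooled C2C12 co-cultures. In co-cultured NSC34 they stood at 673, 582 and 545 CPM, levels from separate tables that were not tested against each other. The co-culture effects of these genes were part of the interaction test and did not pass in the main fit. Higd1a was among the 3 genes of smallest p with a higher log2 fold change in NSC34.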

How the data were processed

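The authors deposited raw counts: whole numbers of Nanopore reads per Ensembl transcript and library, neither scaled nor logged. The genome build is GRCm38, per the submitters' processing notes. How reads were aligned, counted and assigned to a strand, and with which annotation release, is not given in the sources used here. Of 10427 NSC34 transcripts, 10374 matched GENCODE M21 (GRCm38), which gave gene symbols, positions and transcript lengths. Counts were summed per gene, and the unmatched 0.2385% of reads stayed in library totals but not in tests. Strand being unknown, reads of a gene and an antisense partner cannot be told apart. Depth was 88 to 30314 reads per library.

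Genes with 10 or more reads over the 12 libraries were tested with edgeR 4.0.16 in R 4.3.3 (TMM, Benjamini-Hochberg adjustment, threshold 0.05), by the quasi-likelihood F test of the co-culture term. The interaction with line used all 24 libraries. Pooled levels are CPM of all reads. A fold against a group without reads takes 3 reads for that group. It leaves out the counting error of the other group's pooled level. Depth was compared by an exact permutation test. Shared sequence was searched with BLAST+ 2.17.0 (100 or more bases, 90% identity or more). The edgeR scripts were tested on simulated data. Figures were drawn with matplotlib 3.10.9 in Python 3.11.15.

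The groups, the 23 gene lists and the rule for named genes were chosen with earlier results of these data known. The rule takes the genes past the threshold, or the 12 of smallest p in each direction, the 12 with most reads, up to 4 members with most reads per list, all genes of the synapse list and, for the interaction, 3 genes of smallest p per sign. All glycolysis and low-oxygen members were added to it. A few genes that the rule takes are not reported here. Alternatives were other scalings (TMMwsp, RLE-type, library totals), DESeq2 1.42.0, limma-voom (limma 3.58.1), the edgeR legacy fit, other filters, mitochondrial genes, shallow or the deepest library left out, a replicate block and each library left out in turn. Scaling within 5 transcript-length bins was added after seeing the data.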

Additional observations from a re-analysis of the deposited data

Results flagged for a closer look

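Of 52 groups of 6 libraries examined, 7 had 1 library far from the other 5. Chance gives about 1 in 20 such groups for values of equal precision. Most of these values are shares from libraries of unequal depth, so that rate does not apply here. Co-culture 2 held 30314 reads, against 2807 to 9554 in the other co-cultures, and its reads fell on transcripts with a mean annotated length of 2234 bases, the longest of that group. Control 1, with 88 reads in all, had 1.14% of them on neuronal cytoskeleton genes, which is 1 read, and 0% on cell cycle genes. Co-culture 4 had 0.265% of its reads on synaptic vesicle genes, against 0.116 to 0.168% in the other co-cultures. Co-culture 5 held the 1 read on glial markers, 0.0105% of its total. Co-culture 3 had 1.24% of its reads on cytoplasmic actins and their regulators, against 0.95 to 1.04% in the others.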

How the results depend on the processing

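No gene passed under every setting. The main counts were 6 higher and 3 lower. Library totals gave 2 and 3, limma-voom with quality weights 3 and 2, RLE-type factors 7 and 1, and no filter 4 and 0. Length bins, added after seeing the data, gave 1 and 3. DESeq2 gave 0 and 0, with 43 genes at an unadjusted p under 0.05. No gene passed in edgeR with filterByExpr (49 genes tested, 1 unadjusted), with 120 reads in total (96 genes, 6 unadjusted), without libraries under 1000 reads (92 unadjusted) or without the deepest library (653 genes, 57 unadjusted). Leaving out 1 library gave 0 to 7 higher and 0 to 4 lower genes. Some of these fits also held fewer genes or libraries. The causes of the changed counts were not tested. The interaction count was 0, and 1 without control 4.

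No pairing by replicate number was seen. Over 96 genes the deviations of same-numbered libraries correlated from -0.17 to 0.17, and 1 of 6 control libraries correlated best with its own number. At this depth counting error could hide a pairing, so the check cannot decide whether libraries were paired. With a replicate block 0 genes passed higher and 0 lower (71 unadjusted), and the interaction count stayed 0. The depth difference of 6525 reads had an exact p of 0.03125 with the block, the smallest that its 64 sign assignments allow. Leaving out 1 library moved the difference between 2296 and 7797 reads.

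For 33 named genes refitted under other settings or with 1 library left out, 776 of 780 log2 fold changes kept their direction. Most of these genes were taken for a small p in the same libraries, and the refits reuse their reads. A kept direction was therefore likely from the start and is not independent evidence. The fits without the deepest library and without co-culture 2 are the same fit, counted under both. Aldoc (-0.0518) and Pgk1 (-0.0555) reversed with limma-voom, and Eno1 (-0.27) without the deepest library, which is co-culture 2. With 1 library left out, Eno1 ranged from -0.27 to 1.19. Higd1a passed in 8 of 12 other settings, Kif24 in 7, Bnip3 and Gm10719 in 6, Gm7336 in 5, Fam162a and Gm10800 in 4 and Rpl36 in 3 of these 12, and Mif in 6 of 13. Over the 1104 genes, which do not count as replicates, length and log2 fold change had a Spearman's rho of -0.0763.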

Other observations

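Reads also fell on transcript types that differ from messenger RNA. Retained-intron transcripts took 3.41 to 11.2% of a control library and 4.71 to 9.45% of a co-culture library, and protein-coding transcripts took 78.4 to 84.0% and 79.5 to 87.3%, so the groups overlapped in both. Thinned to 2000 reads, the 4 controls deep enough for it showed 991 to 1027 genes and the 6 co-cultures 947 to 1031, so the number of genes seen did not separate the groups at equal depth.

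Of the 22 motor neuron and cholinergic genes 8 had reads in NSC34. Ret, a receptor of neuronal growth factors, had 2 control reads and 1 co-culture read, too few for a test.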
